A study of Mus musculus with 16 samples.

Results

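Binding of SETD5-V5 to the chromatin of 3T3-L1 preadipocytes was compared between 0 h and 6 h after the start of adipogenic differentiation. 3T3-L1 is a mouse fibroblast line that turns into fat cells when treated with MDI, a mixture of insulin (1 µg/ml), dexamethasone (0.25 µM) and isobutylmethylxanthine (0.5 mM). All 4 libraries compared here came from 3T3-L1 preadipocytes and were immunoprecipitated with an antibody against the V5 tag. They comprise 2 replicates at 0 h and 2 at 6 h, named A and B, out of 16 ChIP-seq libraries of the series. The 0 h cells had been confluent and had not yet received MDI. The study describes the replicates as biological. The comparison covers 85513 islands of 479799 in all lists. An island is a stretch of consecutive enriched windows of 200 bp, and its score, set by the caller, is comparable only within its own list. Islands at 6 h that overlapped a 0 h island of the same replicate by at least 1 bp were called kept and the others new. Islands at 0 h without an overlapping 6 h island were called lost. Positions are in mm9, counted from 1.

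SETD5 carries a SET domain, the fold found in most lysine methyltransferases, and associates with the corepressor NCoR and the histone deacetylase HDAC3. Differentiation of preadipocytes begins with the early factors C/EBPβ and C/EBPδ, which with the glucocorticoid receptor open enhancers of the later regulators Cebpa and Pparg. Dexamethasone activates the glucocorticoid receptor, and isobutylmethylxanthine blocks phosphodiesterases and so raises cyclic AMP. The tagged protein was expressed from a retrovirus with a weak promoter, in a stable line chosen for moderate overexpression. The virus field of the labels reads SETD-V5 for replicate B and "-" for replicate A, while the titles name SETD5-V5 for both. Islands covered 100% and 85.0% of the exon bases of Setd5 in replicate A at 0 h and 6 h, and 79.1% and 84.1% in replicate B. They also covered 56.8% to 78.9% of the whole Setd5 gene body in these 4 libraries, introns included. The H3K27ac lists of empty-vector cells covered 2.79% to 3.37% of the exon bases and those of SETD5-V5 cells 37.3% to 48.3%. Reads from the retroviral copy and from the Setd5 locus cannot be told apart, so Setd5 is left out of the gene groups below. Promoters of 7 of 8 mesenchymal marker genes lay in H3K27ac islands of SETD5-V5 cells at day 0, the exception being Cd34, against 0 of 22 markers of other cell types.

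Sequences of chosen windows are shown first. Each is the 200 bp window, within the span shared by the islands of both replicates, with the most matches to AP-1, cyclic AMP response and glucocorticoid response elements. The Uap1, Hsph1 and G3bp1 windows lie in high-ranking new regions, that of Sav1 in a second, lower-ranking new region whose nearest gene start is Sav1, and that of Pparg in a new island upstream of the gene. Fkbp5 and Per1 are glucocorticoid-responsive genes that lay under long islands at 6 h, and Mtss1l has a lost region. Letters are the plus strand of NCBIM37 (mm9), and capitals mark every match, on either strand, to the 5 motifs counted below.
Uap1, chr1:172118801-172119000: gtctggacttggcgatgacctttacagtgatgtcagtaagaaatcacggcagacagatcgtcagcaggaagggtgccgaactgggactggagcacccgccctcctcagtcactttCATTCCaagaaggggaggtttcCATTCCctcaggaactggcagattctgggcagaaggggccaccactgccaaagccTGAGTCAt
Hsph1, chr5:150420401-150420600: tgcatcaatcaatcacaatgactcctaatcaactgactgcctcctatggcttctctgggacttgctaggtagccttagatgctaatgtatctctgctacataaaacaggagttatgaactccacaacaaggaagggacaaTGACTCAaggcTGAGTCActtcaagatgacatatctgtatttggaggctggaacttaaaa
Sav1, chr12:71112801-71113000: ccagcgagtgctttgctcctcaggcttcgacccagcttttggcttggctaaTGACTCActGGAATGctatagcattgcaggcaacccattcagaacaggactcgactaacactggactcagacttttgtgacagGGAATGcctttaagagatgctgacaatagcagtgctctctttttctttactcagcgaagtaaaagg
G3bp1, chr11:55317401-55317600: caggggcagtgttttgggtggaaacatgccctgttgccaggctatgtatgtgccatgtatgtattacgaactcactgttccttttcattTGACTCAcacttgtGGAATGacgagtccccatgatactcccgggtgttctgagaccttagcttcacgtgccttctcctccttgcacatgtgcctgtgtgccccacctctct
Pparg, chr6:115273001-115273200: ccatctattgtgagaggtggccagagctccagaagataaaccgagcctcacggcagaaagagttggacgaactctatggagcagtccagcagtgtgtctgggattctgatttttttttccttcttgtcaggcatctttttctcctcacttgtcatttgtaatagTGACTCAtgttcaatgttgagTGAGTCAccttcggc
Fkbp5, chr17:28655001-28655200: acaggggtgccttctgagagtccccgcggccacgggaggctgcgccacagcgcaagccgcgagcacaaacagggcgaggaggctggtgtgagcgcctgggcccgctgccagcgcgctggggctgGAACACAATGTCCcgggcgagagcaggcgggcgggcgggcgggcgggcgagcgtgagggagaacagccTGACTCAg
Per1, chr11:68916001-68916200: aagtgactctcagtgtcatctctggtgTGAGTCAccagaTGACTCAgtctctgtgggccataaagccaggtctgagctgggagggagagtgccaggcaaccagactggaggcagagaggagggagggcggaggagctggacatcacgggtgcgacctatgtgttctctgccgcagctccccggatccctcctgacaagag
Mtss1l, chr8:113257801-113258000: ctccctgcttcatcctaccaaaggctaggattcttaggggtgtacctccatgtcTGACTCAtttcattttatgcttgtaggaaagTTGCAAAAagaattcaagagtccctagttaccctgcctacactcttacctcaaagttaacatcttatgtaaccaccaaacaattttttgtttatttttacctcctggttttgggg
The Uap1, Sav1 and G3bp1 windows each hold 1 AP-1 match, and those of Hsph1, Pparg and Per1 hold 2. The Fkbp5 window is centred 0.632 kb from the start of the gene, outside its body, and holds 1 AP-1 match and 1 glucocorticoid response element. The Sav1, G3bp1 and Per1 windows overlap exons, that of Sav1 within the neighbouring gene Nin, and the Hsph1 and Mtss1l windows lie in introns of these genes. Windows picked in the same way but not printed held 0 AP-1 matches at Foxp1 and Cebpa, both new in both replicates. Those at Pde4d, Axl and Lpl held 1 or 2. Because the windows were picked by their matches, the matches in them are no evidence about new binding. A match is a description of the letters and not a binding site.

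The number of islands was higher at 6 h than at 0 h in both replicates. Replicate A had 16054 islands at 0 h and 35573 at 6 h, a ratio of 2.22, and replicate B had 6666 and 27220, a ratio of 4.08. The mean was 11360 ± 6638 at 0 h and 31396 ± 5906 at 6 h (SD, n = 2 each). Both 6 h lists were larger than both 0 h lists, and the exact two-sided permutation test over the 4 libraries gave p = 0.333, the smallest value that 2 against 2 allows. Covered length went from 85.6 to 196 Mb in replicate A and from 35.3 to 148 Mb in replicate B. Island numbers divided by the total reads of each library gave ratios of 1.59 and 3.81. Read counts are not part of the lists. The depth behind each island is therefore unknown, and an absent island is one below the caller's threshold.

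**Figure D1:**
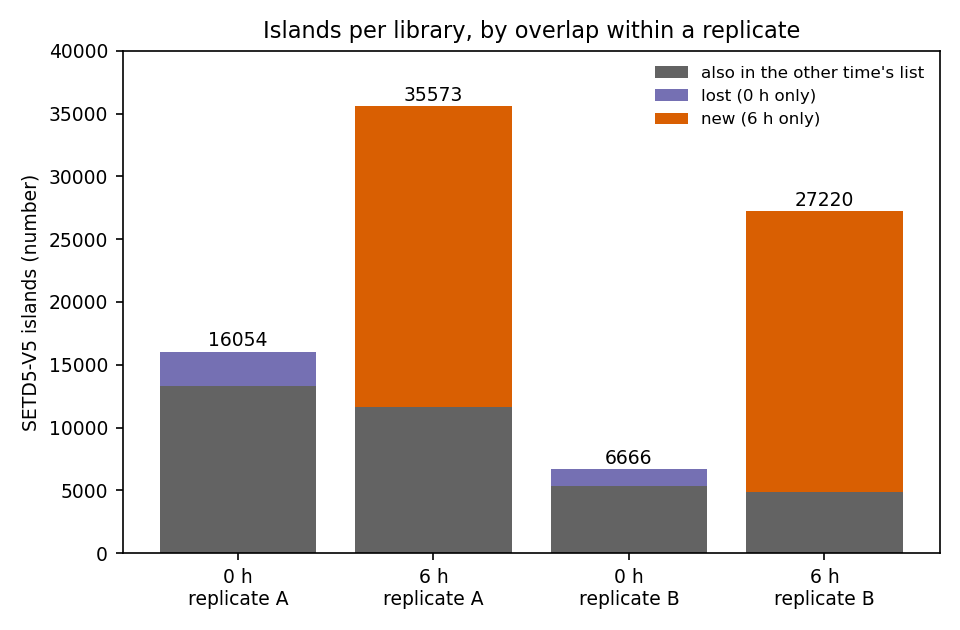
Islands of SETD5-V5 per library (bars, number on the vertical axis), split into those that overlap an island of the other time in the same replicate (grey) and those that do not (purple for lost at 6 h, orange for new at 6 h). New islands make up 67.2% of the 6 h list in replicate A and 82.1% in replicate B, and lost islands 16.9% and 20.1% of the 0 h lists.

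Most 6 h islands had no counterpart at 0 h, while most 0 h islands had one at 6 h. Replicate A had 23908 new islands, 67.2% of its 6 h list, and B had 22354, 82.1%, with a mean of 74.7% ± 10.5 (SD, n = 2). Lost islands numbered 2708 of replicate A's 0 h list, 16.9%, and 1339 of replicate B's, 20.1%, with a mean of 18.5% ± 2.28 (SD, n = 2). These shares stand beside the differences between replicates of the same time. Of the 0 h islands of replicate A, 68.9% were absent from replicate B's 0 h list, and 20.1% of replicate B's were absent from that of A. At 6 h the same shares were 36.3% and 11.5%. The shares of new islands were above the absence between the 6 h replicates in both directions, but that of replicate A was below the 68.9% by which the 0 h replicates differed. The share lost was below that of A's 0 h islands absent from B's in replicate A, and in replicate B equal, to 3 digits, to that of B's absent from A's. Among the 6000 highest-scoring islands of each list, 48.5% and 59.0% of 6 h islands were new and 35.6% and 46.7% of 0 h islands were lost.

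Joined across replicates, the islands formed 37333 regions. Of 19242 regions present in both 6 h lists, 11084 were absent from both 0 h lists (57.6%), and these are called new regions. Of 3773 regions in both 0 h lists, 186 were absent from both 6 h lists (4.93%) and are called lost. Regions of all 4 lists, called kept, numbered 3316. A further 4552 regions were in both 6 h lists and only replicate A's 0 h list, and 290 in both 6 h lists and only replicate B's. At 6 h, 87.2% of B's new islands were also covered by A's list, and 55.2% of A's by B's list.

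New islands were shorter and ranked lower than kept ones. Their median length was 3200 bp in replicate A and 3800 bp in replicate B, against 5800 and 6300 bp for kept islands at 6 h. Lost islands had medians of 3400 and 3800 bp. With each list divided by score into 10 bins of equal number, 2.34% of new islands in A and 4.71% in B were in the highest-scoring bin, against 25.7% and 34.3% of kept islands. The share of new islands went from 15.7% in the highest bin of replicate A to 87.5% in the lowest, and from 38.7% to 93.5% in replicate B. The share lost went from 0.996% to 34.6% and from 2.40% to 30.2%. Of new islands, 21.6% and 11.6% lay within 10 kb of a 0 h island of their replicate, against 6.72% and 3.25% of evenly spaced windows of the genome outside 0 h islands.

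**Figure D2:**
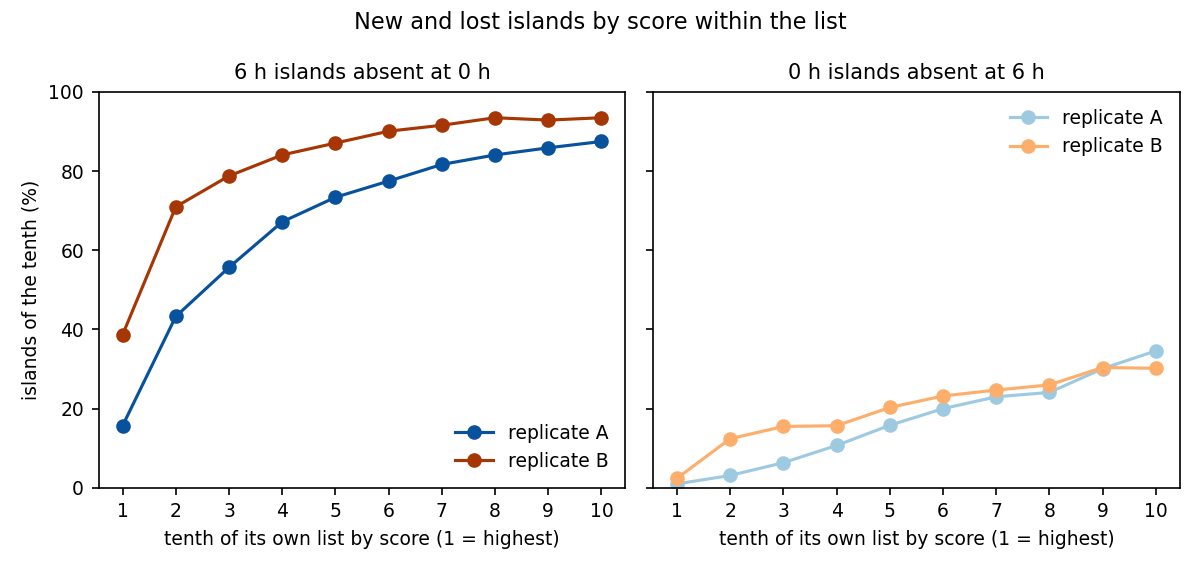
Share of islands that were new at 6 h (left) or lost at 6 h (right), in percent, by bin of their own list ranked by score, with 1 the highest-scoring of 10 bins, for replicates A and B. New shares climb from 15.7% and 38.7% to 87.5% and 93.5%, and lost shares from 0.996% and 2.40% to 34.6% and 30.2%.

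Kept islands were longer at 6 h, and the difference was larger for those that scored low at 0 h. In replicate A 7760 islands paired 1 to 1 between the times and 67.0% of the pairs were longer at 6 h. In replicate B 3336 paired and 69.9% were longer. The median log2 ratio of length, 6 h over 0 h, was 0.40 and 0.57, with a mean of 0.485 ± 0.126 (SD, n = 2). In the highest-scoring bin of the 0 h lists the median ratio was 0.01 and 0.00, and in the lowest bin 0.79 and 0.94. Bins were formed by the 0 h score, and median 0 h lengths were 11000 and 10000 bp in the highest and 2600 and 2800 bp in the lowest. The part of this choice in the difference between bins was not tested. In all, 2073 islands of replicate A at 6 h spanned 2 or more 0 h islands, up to 20, and 695 of replicate B did so, up to 16. Rank within the list is given as the percent of the list with a higher score. By it, 71.6% and 75.5% of pairs stood nearer the top at 6 h. This count changed with list size. Among the 6000 highest-scoring islands of each list 46.8% and 47.6% of pairs stood nearer the top.

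The islands that ranked highest at both times were not particular to SETD5-V5. The first 8 kept regions by rank were present in all 16 lists of the series, whichever antibody was used. The island of 294200 bp over Cpm, a membrane carboxypeptidase, on chromosome 10 had the highest score in each of the 4 lists, with lengths of 294200 to 294600 bp. Regions near Gm11167, Cpsf6, Lin7a, Sfi1 and Cwc22 followed, and the other two had no gene start within 50 kb. In all, 420 of the 3316 kept regions (12.7%) and 9 of the 11084 new ones overlapped islands in all 12 lists of other antibodies or cells. Without regions found in all 16 lists the median log2 length ratio of kept islands was 0.415 and 0.621.

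Some gene bodies without an island at 0 h lay wholly inside islands at 6 h, among them Hspd1, Rps15a, Sav1 and Uap1 in both replicates. For each of 22226 genes, nearly all protein-coding, the share of the gene body inside islands was taken in each library. The share was larger at 6 h in both replicates for 5313 genes (23.9%) and smaller in both for 272 (1.22%). Among the 6000 highest-scoring islands of each list, the counts were 1746 (7.86%) and 476 (2.14%). Of 4827 genes of 50 kb or longer, with all islands, 2240 (46.4%) had a larger share in both replicates and 67 a smaller one. Covered length was larger at 6 h in both replicates, and its part and that of gene length in these counts were not tested. Of all 22226 genes, 10995 had no island assigned to them in any library. Most lists below held fewer such genes, with 2 of 16 glucocorticoid-responsive and 1 of 20 TGF-beta and BMP genes. The list of other cell types had 15 of 22. The part of this in the comparisons with all genes below was not tested. Ranked by the smaller of both gains among genes of at least 10 kb, a ranking set after values had been seen, the first were Hspd1, Rps15a, Sav1, Uap1, Hsph1, Cct5, G3bp1, Zfp706, Tomm20, Slc16a1, Cct4 and Nop2. Islands covered 0% of Hspd1, the mitochondrial chaperonin, in both 0 h lists and 100% in both 6 h lists. Hsph1, a cochaperone of HSP70, had 0% in both 0 h lists, 100% in replicate A at 6 h and 98.4% in replicate B. Uap1, which makes UDP-N-acetylglucosamine, had 0% at 0 h in both and 100% at 6 h in both. Its island was the highest-ranking new region, 71400 bp in replicate A and 69200 bp in replicate B, with 0.163% and 0.140% of the list scoring higher. Sav1, a scaffold of the Hippo pathway, also went from 0% to 100% in both replicates. G3bp1, a stress granule protein, went from 0% in both to 97.7% and 96.5%. These 5 genes were taken from a ranking by the smaller gain of both replicates, so their wide gap between 0 h and 6 h in both follows from the choice. Their shares were the same in the lists of 6000 islands.

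Every subunit of the cytosolic chaperonin, which folds actin and tubulin, had a larger share at 6 h in both replicates, 8 of 8 against 23.9% of all genes. Cct4 went from 0% in both 0 h lists to 100% and 94.9%. Cct8 went from 27.1% and 0% to 100% and 100%. The smallest gains were those of Cct6a, from 0% and 3.16% to 28.8% and 9.80%. The median change over the 8 genes was 84.1 percentage points in replicate A and 64.1 in replicate B, against 0 for all genes in each. In the lists of 6000 islands 3 of the 8 had a larger share in both replicates, against 7.86%. Heat shock proteins had 7 of 12 with a larger share and 0 with a smaller one. Hsp90aa1, the inducible cytosolic HSP90, went from 0% in both to 56.0% and 41.1%. Genes for assembly of ribosomes in the nucleolus had 7 of 12, among them Ncl, the major nucleolar protein nucleolin, from 11.6% and 22.4% to 100% and 99.8%. These 3 gene lists were drawn up after the ranking above had been seen. The lists that follow were chosen with earlier results of these data known. The counts of all lists are therefore a description and no independent evidence.

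**Figure D3:**
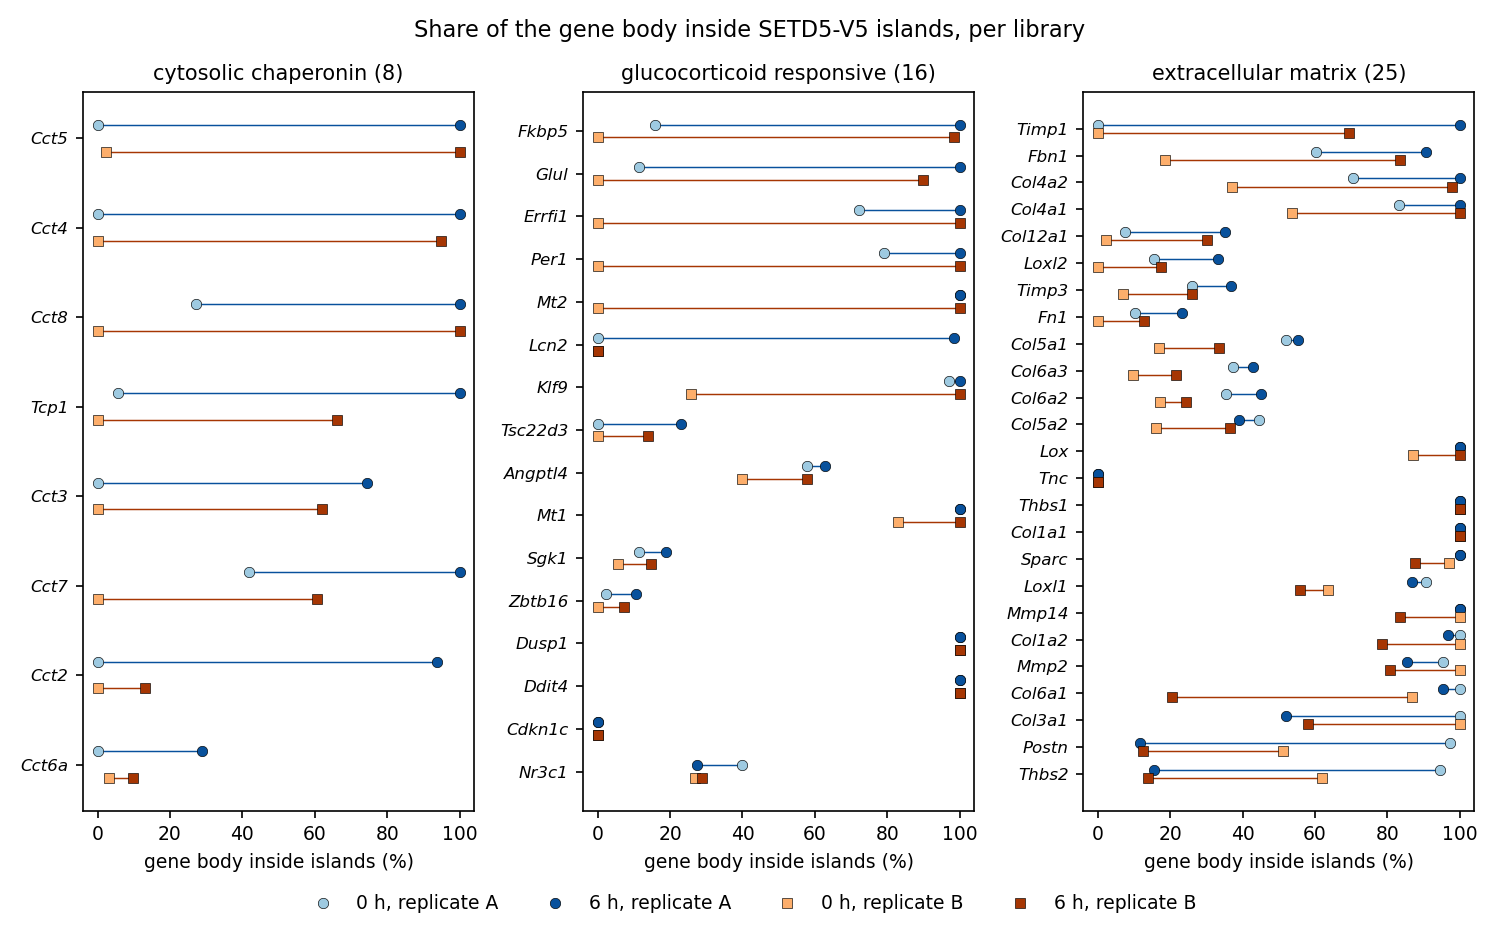
Share of the gene body inside SETD5-V5 islands (horizontal axis, percent) for the genes of 3 lists, with circles for replicate A, squares for replicate B, pale for 0 h and dark for 6 h, joined within a replicate and ordered by the mean change. All 8 chaperonin genes lie further right at 6 h in both replicates, 9 of 16 glucocorticoid-responsive genes do, and 7 of 25 matrix genes lie further left in both.

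Several glucocorticoid-responsive genes lay under long islands at 6 h. Of 16 such genes, 9 had a larger share in both replicates and 0 a smaller one, against 23.9% and 1.22% of all genes, and 9 did so in the lists of 6000 islands, against 7.86%. Fkbp5, the immunophilin that restrains the glucocorticoid receptor, had 15.9% of its body in islands in replicate A at 0 h and 0% in replicate B, and 100% and 98.3% at 6 h. In replicate A 4 islands of 2.40 to 8.20 kb at 0 h lay within a single island of 149 kb at 6 h, which 0.0562% of the list outscored. In replicate B, which had no island in the gene body at 0 h, islands of 118, 6.00 and 20 kb covered the locus. The clock gene Per1 went from 79.1% and 0% to 100% in both, under islands of 29.0 and 27.4 kb. Glul, glutamine synthetase, went from 11.5% and 0% to 100% and 89.8%. Errfi1, an inhibitor of the EGF receptor, went from 72.1% and 0% to 100% in both. Tsc22d3, which encodes GILZ, went from 0% in both to 23.1% and 14.0%, with 4 new regions. Dusp1 and Ddit4 were at 100% in all 4 libraries, and Cdkn1c at 0% in all 4. Nr3c1, the receptor gene, had 39.8% and 26.9% at 0 h and 27.4% and 28.9% at 6 h, with no common direction. In the lists of 6000 islands it had the only smaller share of the list, from 16.3% and 26.9% to 14.6% and 8.67%.

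Extracellular matrix genes moved in both directions. Of 25, 11 had a larger share in both replicates and 7 a smaller one, against 23.9% and 1.22%. In the lists of 6000 islands 9 had a smaller share, against 2.14%, and 6 a larger one. Of 609 genes with at least 50% of the body in islands in both 0 h lists, a limit chosen after values had been seen, 97 fell in both (15.9%) and 108 rose in both. Of 13 such matrix genes 7 fell and 1 rose. Those that fell were Col1a2, Col3a1, Col6a1, Loxl1, Mmp2, Postn and Thbs2. Postn, which encodes periostin, fell from 97.3% to 11.8% in replicate A and from 51.2% to 12.6% in replicate B. Thbs2, thrombospondin 2, fell from 94.4% to 15.5% and from 61.8% to 13.8%. Col3a1, the type III collagen chain, fell from 100% in both to 51.9% and 58.2%. Col1a1 and Thbs1 were at 100% in all 4 libraries. Timp1, an inhibitor of matrix proteases, rose from 0% in both to 100% and 69.4%, and Fbn1, fibrillin 1, from 60.4% and 18.5% to 90.5% and 83.5%. Of 8 mesenchymal markers 3 had a larger and 3 a smaller share in both replicates. Ly6a went from 0% in both to 100% in both, Cd34 from 0% in both to 25.8% and 10.7%, and Thy1 from 78.2% and 0% to 100% and 6.43%. Besides Col3a1, both PDGF receptors fell, Pdgfra from 93.5% and 48.6% to 37.2% and 13.3% and Pdgfrb from 79.2% and 51.1% to 38.1% and 18.5%.

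By the same ranking in the other direction, the largest falls were at Ctdsp2, Lbh, Pcdh18, Gm4723, Gm4245, Thbs2, Irs1 and Socs5. Gm4723 and Gm4245 lie on chromosome 2 near the zinc finger gene cluster named below, with the same uncertainty of read placing. Ctdsp2, a phosphatase of the RNA polymerase II tail, fell from 95.3% and 90.5% to 34.9% and 10.3%. Pcdh18, a protocadherin, fell from 100% in both to 24.5% and 50.1%. Irs1, the insulin receptor substrate, fell from 89.5% and 60.4% to 20.2% and 17.8%. Irs2, its paralog, went from 63.6% and 0% to 100% in both. The insulin signalling list of 13 genes had 7 with a larger and 3 with a smaller share, against 23.9% and 1.22%, and 2 of each in the lists of 6000 islands. Its median gene length was 58 kb, and 46.4% of genes of 50 kb or longer had a larger share.

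Of all 22226 genes, 4161 (18.7%) had a new region nearest to their start and within 50 kb, 1999 (8.99%) a kept region and 114 (0.513%) a lost one. Among genes of 50 kb or longer 36.2% had a new region. Pde4d, a phosphodiesterase that breaks down cyclic AMP and a target of isobutylmethylxanthine, had 25. As nearest gene it had 3 islands at 0 h in replicate A and 0 in replicate B, and 44 and 39 at 6 h. Mecom and Sema5a had 13 each, Plcb1 and Psd3 11, Vav3 10, and Cacnb2 and Pde1a 9. These 8 genes are 295 to 1504 kb long, Pde4d being the longest, against a median of 15 kb for all genes. The part of gene length in the counts was not tested. Islands covered 17.6% to 52.5% of these 8 genes at 6 h, and 0% to 15.6% at 0 h. A total of 2794 genes had exactly 1 new region and 110 had 5 or more.

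The cyclic AMP-responsive list had 7 of 15 genes with a new region, against 18.7% of all genes. Share was larger for 8 and smaller for 1, Prkar1a, a regulatory subunit of protein kinase A, against 23.9% and 1.22%, and in the lists of 6000 islands larger for 3 and smaller for 2. Besides Pde4d, genes with new regions include Pde4b with 5 new regions and Pde3b with 4, both of the same enzyme class, and Crem, a repressor of cyclic AMP response, with 2. Nr4a1, an immediate early nuclear receptor, was at 100% in 3 libraries and at 0% in replicate B at 0 h. Ppargc1a had 2 new regions and no common direction in gene body share.

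Adipogenic regulators differed from each other. Of 16 adipogenic factors 8 had a new region and 8 a kept one, against 18.7% and 8.99% of all genes, and 36.2% of genes of 50 kb or longer had a new one. Share was larger in both replicates for 6 and smaller for 2, against 23.9% and 1.22%, but in the lists of 6000 islands it was larger for 2 and smaller for 3. The median gene length of this list was 78 kb, and 46.4% of genes of 50 kb or longer had a larger share. Pparg, the master regulator of fat cells, had 5 new regions. Its body was covered to 36.7% and 4.95% at 0 h and to 69.3% and 75.4% at 6 h, so that both 6 h libraries were above both 0 h libraries. In replicate A 12 of 13 islands that overlapped the gene or lay nearest to its start at 0 h were kept, and in replicate B both of 2. Cebpa had no island assigned to it at 0 h in either replicate. At 6 h an island of 3.40 kb in replicate A (chr7:35910801-35914200) and 2.60 kb in replicate B (chr7:35910801-35913400) lay downstream of the gene, and 47.9% and 66.6% of the lists scored higher. Replicate A had 2 further islands, and 73.8% of the gene body was inside islands, against 0% in replicate B. The early factor Cebpb was at 100% and 61.0% at 0 h and 100% in both at 6 h, and its island went from 12.4 to 24.0 kb and from 10.8 to 19.8 kb. Cebpd was at 100% in all but replicate B at 0 h, which had no island. Klf5 rose from 0% in both to 94.6% and 68.6%. Ebf1 and Rxra were lower in both replicates, Rxra from 93.5% and 19.2% to 68.7% and 10.3%, and Ebf1 from 62.0% and 18.7% to 19.6% and 17.9%, so that in replicate B Ebf1 hardly differed.

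Of 23 genes of the mature fat cell, 7 had a new region (30.4%, against 18.7% of all genes), 3 a kept one, and 5 had no island assigned in any library. Scd1, stearoyl-CoA desaturase, went from 0% and 27.6% to 100% in both, with 3 new regions. Fabp4 went from 0% in both to 52.0% and 42.6%. Adipoq had 2 new regions outside its body, of 2.40 kb each in replicate A, and the gene itself was at 0% in all 4 libraries. Plin1, Cfd, Retn and Aqp7 likewise had no island in their bodies. Of 18 preadipocyte and anti-adipogenic genes, 12 had a kept region and 6 a new one, against 8.99% and 18.7% of all genes. Dlk1, the preadipocyte factor, had 98.4% and 83.2% at 0 h, and 100% and 39.6% at 6 h.

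Of the other groups, TGF-beta and BMP genes had 14 of 20 with a larger share and 0 with a smaller one, against 23.9% and 1.22% of all genes, and 7 and 1 in the lists of 6000 islands. Their median length was 62 kb, against 15 kb for all genes, and 46.4% of genes of 50 kb or longer had a larger share. Inhba, an activin subunit, went from 0% in both to 67.2% and 61.2%. TEAD and YAP genes had 8 of 15 with a larger share, among them Ctgf from 0% to 100% in both replicates and Ankrd1 from 0% in both to 39.8% and 30.5%. In the lists of 6000 islands 4 had a larger share, and Ctgf and Ankrd1 were at 0% throughout. AP-1 factors had 4 of 12, and Jun, Junb and Jund were at 100% in replicate A at both times. In replicate B Jun went from 68.6% to 100% and Junb from 43.7% to 100%, while Jund was at 100% at both times. The NCoR-HDAC3 list without Setd5, of median length 141 kb, had 4 of 6, with Tbl1xr1 from 6.02% and 0% to 38.7% and 31.0%. Clock genes had 8 of 14 with a larger share and 1 with a smaller one, and 5 and 2 in the lists of 6000 islands. Cell cycle genes had 6 of 19 with a larger share. Actin and SRF genes had 4 of 21 with a larger share, near the 23.9% of all genes, and 3 with a smaller one, against 1.22%. In the lists of 6000 islands 3 of them had a larger share and 4 a smaller one, against 7.86% and 2.14%. C/EBP family genes had 1 of 7 in each direction. Of 22 genes of other cell types 1 had a new region, Pecam1, against 18.7% of all genes, and 2 had a larger share.

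Among regions kept 1 to 1 in both replicates, 1317 in all, 47.2% were longer at 6 h in both and 9.95% shorter in both. The largest gains of length included Pcnxl2, Il33, Fam135b, Gm9920, Axl and Cct5. The region at Il33, an alarmin cytokine, grew from 2600 to 13800 bp in replicate A and from 2000 to 11200 bp in replicate B. That at Axl, a receptor tyrosine kinase, grew from 3600 bp in both to 19400 and 14800 bp. Ranks are shares of lists of unequal size, longer at 6 h, so a gain is not by itself a change of binding. The largest gains of rank included Snhg11 and Ran, the nuclear transport GTPase, whose region had 76.1% and 75.1% of the list above it at 0 h and 4.31% and 7.98% at 6 h, with lengths of 3400 and 3800 bp at 0 h and 11400 and 10600 bp at 6 h. The largest falls of rank included Tns3, a tensin of focal adhesions, with 7.18% and 11.3% at 0 h and 66.8% and 93.0% at 6 h, and Col27a1, a fibrillar collagen. Of the 8 highest-ranked lost regions 6 had a gene start within 50 kb, those of Mtss1l, A530032D15Rik, Gm14406, Gm13242, Catsper1 and Gm9747, and the last of these regions lies within Irs1. At Mtss1l islands of 17.6 kb in replicate A and of 5.60 and 6.00 kb in replicate B had no overlap at 6 h. Gm14406, Gm13242 and 2610305D13Rik, which is among the falls of rank, lie in clusters of near-identical zinc finger genes, where the placing of short reads is uncertain.

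Along genes, islands were most frequent at the start and again just past the end. Over 13447 genes of 10 kb or longer, islands covered the first position sampled inside the start in 17% of genes in replicate A and 3.49% in replicate B at 0 h, and in 42.5% and 20.7% at 6 h. The lowest value inside gene bodies at 6 h was 10.7% and 7.13%. Beyond the end of the gene coverage rose again, to 17.6% and 10.7% at 6 h. At 0 h the highest value past the end was 9.99% and 3.92%, which in replicate B exceeded the value at the start.

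**Figure D4:**
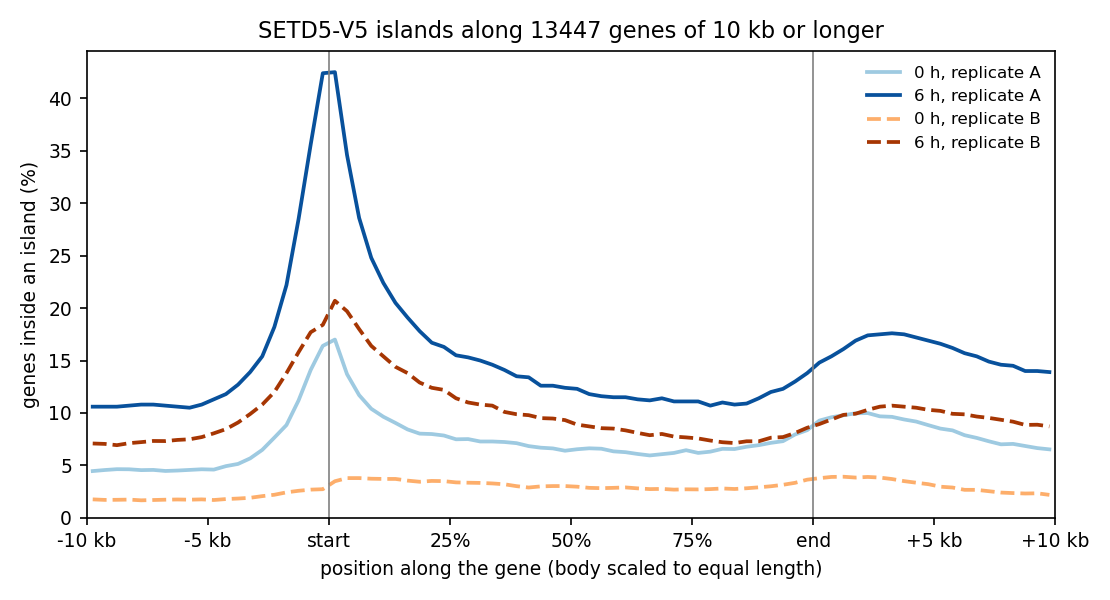
Percent of 13447 genes of 10 kb or longer with an island at each position from 10 kb before the start to 10 kb past the end, with bodies scaled to equal length, in each of the 4 libraries. The 6 h lines peak at 42.5% and 20.7% just inside the start and rise again past the end, to 17.6% and 10.7%.

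Promoters, taken from 1000 bp before to 100 bp past a start, were touched by 20.2% and 16.2% of new islands, 36% and 30.6% of kept islands and 11.2% and 12.9% of lost ones. Kept islands are longer. Counted by the midpoint of the island alone, new and kept islands differed by -0.256 and -0.388 percentage points. Midpoints of new islands lay in introns in 47.5% and 50% and outside genes in 46.1% and 45.5%.

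H3K27ac, which marks active enhancers and promoters, was compared with the island classes. In SETD5-V5 cells at day 0, H3K27ac islands overlapped 51.6% and 55.2% of new islands, 81.1% and 78.9% of kept and 30.3% and 25.8% of lost ones. At day 2 the shares were 57.4% and 62.9% for new islands and 20.7% and 21.4% for lost ones, higher than at day 0 at new and lower at lost islands in both replicates. H3K4me1, found at enhancers whether primed or active, has 1 library a time, whose title names no vector. At day 0 it overlapped 48.3% and 56.2% of new islands, 80.6% and 83.0% of kept and 45.7% and 40.6% of lost ones. Both marks at day 0 were found at 32.7% and 41.4% of new and 71.3% and 72.2% of kept islands. Islands of endogenous SETD5 at 6 h numbered 3293 in 1 library, whose title names no vector. Of these, 67.9% (A) and 51.8% (B) overlapped kept SETD5-V5 islands and 12.7% and 26.5% new ones. Counted the other way, endogenous islands at 6 h overlapped 1.84% and 4.08% of new islands. They overlapped 16.8% and 31.8% of kept islands and 9.31% and 23.4% of lost ones. Regions found in all 16 lists were not left out of these shares. Lengths differ between the classes, and their part in these shares was not tested except for H3K27ac with H3K4me1 under a 50% overlap, where the shares of new and kept islands with both marks differed by -19.7 and -20.2 percentage points.

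AP-1 motifs were denser in new islands than in kept or lost ones in both replicates. In the central 1000 bp of new islands the AP-1 letters TGACTCA occurred 0.318 and 0.304 times per kb, in kept islands 0.219 and 0.216 times, in lost islands 0.173 and 0.155 times, and 0.163 times in evenly spaced windows of the genome. Of new windows 26.4% and 25.4% held a match, against 14.8% of genome windows. The ratio of new over kept was 1.45 and 1.41, a mean of 1.43 ± 0.0327 (SD, n = 2). The C/EBP letters TTGCNNAA occurred 0.552 and 0.559 times per kb in new, 0.469 and 0.488 in kept and 0.510 in genome windows. The glucocorticoid response element occurred 0.0239 times per kb in new islands of both replicates, 0.0166 and 0.0165 in kept and 0.0174 in genome windows. The TEAD letters GGAATG had 0.604 and 0.607 in new, 0.618 and 0.626 in kept and 0.592 in genome windows. The cyclic AMP response element TGACGTCA was rare, in 1.05% and 0.743% of new windows, 0.960% and 0.576% of kept and 0.554% and 0.224% of lost windows, against 0.546% of genome windows. All motifs were counted on both strands without a mismatch. GC content was 44.5% and 43.1% in new windows, 46.1% and 44.2% in kept ones and 41.8% in the genome windows, and its part was not tested.

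The distribution over chromosomes differed between the times. Chromosomes 2, 6, 8, 15, 17 and 19, chosen after the values had been seen and 27.4% of the genome, held 56.5% and 55.0% of 0 h islands and 39.8% and 46.2% of 6 h islands. On these 6 the ratio of 6 h over 0 h was 1.56 and 3.43, and on the other autosomes and X 3.06 and 4.88. H3K4me1 islands had 46.4% on the same chromosomes at day 0, H3K27ac islands of SETD5-V5 cells 33.0% and 33.2%, and endogenous SETD5 islands 41.0% at 0 h and 41.4% at 6 h. New regions were found at 20.4% of genes on the 6 chromosomes and 18.0% of the others, and kept regions at 15.1% and 6.38%.

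**Figure D5:**
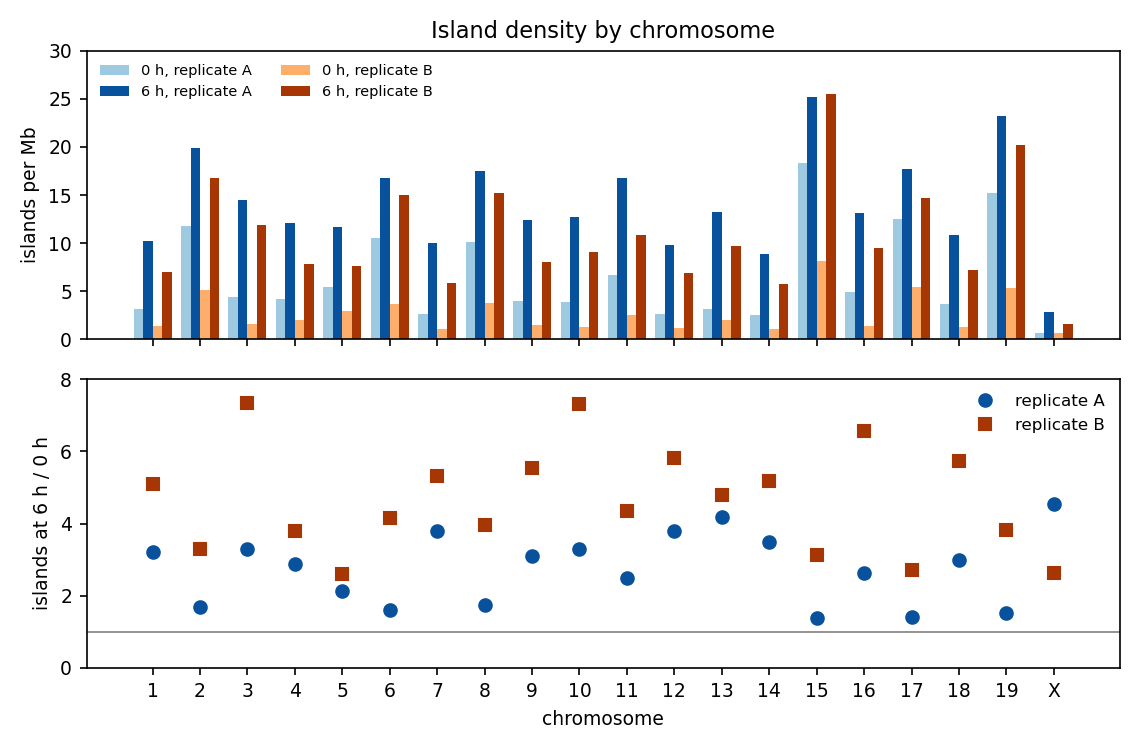
Islands per Mb by chromosome in each of the 4 libraries (top) and the number at 6 h over that at 0 h by replicate (bottom, the grey line marks 1). Chromosome 15 has the highest 0 h density in both replicates, 18.3 and 8.16 per Mb, and every chromosome shown has more islands at 6 h in both replicates.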

How the data were processed

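SETD5-V5 ChIP-seq of 3T3-L1 preadipocytes at 0 h and 6 h was taken as the authors deposited it, as 1 list of islands per library with chromosome, start, end and score. Per the submitters' processing notes, the tools were Bowtie2, SICER and deepTools and the build was mm9. Per the study's methods, chromatin was cross-linked with EGS and formaldehyde, and islands were called in each library with windows of 200 bp. Wide gaps allowed between windows join neighbouring signal, which bears on island length. The score was set by the authors' caller, and it was used only to rank islands within a list. The smallest gap found between islands was 800 bp. Whether an input was used in calling is not given in the sources used here.

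Islands were compared within each replicate letter by an overlap of at least 1 bp and joined over the 4 lists into regions. Regions were assigned to the nearest gene start within 50 kb in the GENCODE annotation of NCBIM37, over protein-coding genes and 1 further gene of the lists, Cebpd. The share of a gene body inside islands used the longest record of each gene name. Numbers of islands were compared with an exact permutation test and its form with the letters as blocks. No other test was run, because islands and genes are not replicates. Shares are therefore given per replicate. A p-value over islands or genes would not measure the spread between libraries. Motifs were counted without a mismatch in the central 1000 bp. Genome windows of the same length, spaced evenly, gave the background.

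Genes named are the members of the gene lists, the 8 genes with the most new regions, and the genes of the 8 highest-ranked new, kept and lost regions and of the 8 regions with the largest gain of rank, fall of rank and gain of length. Genes ranked by gene body share, and the lists of chaperonin, heat shock and nucleolar genes, were added after values had been seen. Members and lists were chosen with earlier results of these data known. Python 3.11.15, numpy 2.4.6, pandas 2.3.3, pysam 0.24.0 and matplotlib 3.10.9 were used, and the overlap functions were tested on simulated data. Alternatives covered overlap, list size, rank measure, distance to genes, promoter window, motif window, opposite letters and each replicate left out. The values of 1 list gene are not reported here.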

Additional observations from a re-analysis of the deposited data

How the results depend on the processing

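The 9 results were recomputed under 56 alternatives. None reversed, 34 moved by less than the spread between replicates or, for the share of genes, stayed in its binomial interval, and 22 moved further. Part of these counts was fixed in advance. For results with a value per replicate, leaving a replicate out moves the mean by less than the SD whatever the values. The replicate block keeps the ratio itself. The shares of new islands, of lost islands and of genes, and the ratio of motif densities, are never negative, so these results could not reverse. The differences between new and kept islands in promoter share and in marks could. With 2 libraries a time the exact tests run here cannot pass 0.05. The share of new islands was 53.7% in the 6000 highest-scoring islands, against 74.7%. The share lost was 41.2% there, 26.1% where at least 50% of the island had to be covered, 22.8% between opposite letters and 21.3% without chromosomes 2, 6, 8, 15, 17 and 19, an alternative chosen after seeing the data, against 18.5%. Leaving out a replicate gave 67.2% to 82.1% new, 16.9% to 20.1% lost, and ratios of island number of 2.22 to 4.08.

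Nothing in the labels ties samples of the same letter beyond the letter itself. A replicate block, an exact sign-flip test over both pairs of letters, left the ratio of island number at 3.15 with p = 0.500, the smallest that 2 pairs allow. Whether samples of one letter deviate together was not computed, since 2 pairs cannot settle it.

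The log2 length ratio of kept islands was 0.733 in the 6000 highest-scoring islands, against 0.485. The median rank of new islands lay 35.9 percentage points below that of kept ones, and 20.4 by score per kb, 31.0 by length, 30.9 in the 6000 highest-scoring islands and 34.6 without regions found in all 16 lists, the last chosen after seeing the data. The share of genes with a new region was 15.5% within 25 kb, 20.4% within 100 kb, 14.3% over all annotated genes, 20% with replicate A's 6 h islands as the index, 35.6% where any region within 50 kb counted, 18.0% without the 6 chromosomes and 29.5% to 36.3% from 1 replicate alone, against 18.7%. New and kept islands differed in promoter share by -15.1 percentage points, and by -0.322 by midpoint. They differed in the share with both marks by -34.6 points, and by -20 where 50% had to be covered. The AP-1 ratio of new over kept was 1.28 over whole islands and 1.49 without the 6 chromosomes, against 1.43.

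Lists without read counts limit all of this: an island below the threshold in a shallower library cannot be told from an absent one.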
